A study of Mus musculus with 19 samples.

Results

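The 45 genes described here encode the machinery that copies the genome in S phase, and their transcripts were counted by bulk RNA-seq in monocytes sorted from mouse bone marrow. They were taken by name as a list of DNA replication and nucleotide synthesis genes; the rule sets no limit on a measured value, but the list was drawn up with earlier results of these data known. All 45 had a row among the 50854 genes of the count table, and all 45 were among the 18652 genes tested, a gene being tested where it averaged 1 read or more per library over the 19 that were used. The list was divided by role into licensing (10 genes), helicase activation (6), polymerases and primase (7), clamp and clamp loader (6), strand maturation, protection and repair (4), nucleotide synthesis (5), chromatin (4) and cycle regulators (3).

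The mice were females of 8 to 12 weeks, and the sorted cells came from REP mice, which carry fluorescent reporters of the inflammatory chemokine receptors, so that cells could be gated on receptor expression. CCR1/2 denotes monocytes positive for both CCR1 and CCR2, and CCR2 denotes monocytes positive for CCR2 alone. There were 4 libraries of resting CCR1/2, 4 of resting CCR2, 3 of inflamed CCR1/2, 4 of inflamed CCR2 and 4 of inflamed CCR1, a group whose gate is not described in the sources used here. Inflamed mice had a subcutaneous osmotic pump that released interleukin 3, interleukin 6, GM-CSF and interferon alpha for 7 days, and whether the resting mice carried a vehicle pump is not stated for these libraries. The sources do not say that the libraries of a group came from separate mice, so the p-values below measure the spread between these samples, which may be in part technical.

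Between 22268658 and 30502009 reads per library fell on genes, with a median of 23706580. Levels are given as CPM, the reads of a gene per 1000000 reads on genes after scaling of the libraries, and where they are pooled as the mean ± SD over the libraries of a group (n = 4, or 3 for inflamed CCR1/2). Differences are log2 fold changes with their standard error (SE) from edgeR, and a gene was called higher or lower where its Benjamini-Hochberg adjusted p over all 18652 genes was below 0.05. The comparisons share libraries with each other, so their results are not independent.

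Each chromosome is copied once per cycle. In G1 phase the origin recognition complex (Orc1 to Orc6), Cdc6 and Cdt1 load the ring-shaped Mcm2 to Mcm7 helicase onto origins; Cdc45, the GINS complex (Gins1 to Gins4) and Mcm10 then switch it on, and the polymerases, their sliding clamp Pcna and a supply of deoxynucleotides do the copying. Most of these genes are transcribed in a wave before S phase under E2F transcription factors, and their transcripts fall away when cells stop dividing. Monocytes arise in the bone marrow from dividing progenitors and leave the cycle as they mature.

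The labels call every library monocytes, and the marker genes were at odds with that label in the 4 inflamed CCR1 libraries. There, Csf1r, the receptor for macrophage colony-stimulating factor, had 302 to 532 reads per library, against at least 10452 in the libraries of the other groups. The granule genes Elane (468222 to 567098 reads), Mpo (387011 to 501804) and Ngp (1542256 to 2139892) were far above the other groups, whose highest counts were 86218, 100906 and 8268. Mmp8, a mature neutrophil marker like Ngp, went the other way, with 112 to 269 reads against at least 9574 in the other groups. All 11 monocyte markers tested were lower in inflamed CCR1 than in inflamed CCR2, at a median log2 fold change of -5.74. Of them 9 were lower by at least 2-fold, and the smallest difference was -0.30. Reads overlapped for Ly6c2 (30210 to 31513 against 28950 to 46212) and lay close for Itgam (1717 to 2161 against 2318 to 2741). The cells of these 4 libraries are therefore called by their label, inflamed CCR1, and not by a cell type. In the other 4 groups the summed CPM of the 11 monocyte markers ran from 26645 to 49572.

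E2F proteins bind short sequences such as TTTCCCGC, TTTCGCGC, TTTGCCGC and TTTGGCGC, and these 4 words of 8 letters were searched on both strands of promoter windows, from 250 bases before to 50 bases after the RefSeq transcription start (build GRCm38.p6). A window was found for 37 of the 45 genes; Pole, Mcm4, Prim2, Gins1, Gins2, Gins4, Ccne2 and Rfc2 had none. Of the 37, 14 (37.8%) held at least 1 match, against 704 of 27025 genes (2.605%) with a window. The matches were frequent among the licensing genes (7 of 9) and polymerases (3 of 5), and none of the 5 nucleotide synthesis genes held one. Some of the words overlap each other on opposite strands, so that 1 stretch of promoter can count as 2 matches. A match describes letters in a window and says nothing of binding in these cells.

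The promoters of 5 genes whose values are given below are shown to let the matches be seen. They are the 250 bases before the RefSeq start, 5′ to 3′ on the strand of the gene, with the E2F matches in capitals. Mcm5 (chr8:75109259-75109508, plus strand) holds 2 overlapping matches, Mcm6 (chr1:128359706-128359955, minus strand) holds 3, of which 2 overlap, Cdc6 (chr11:98907901-98908150, plus strand) and Pola1 (chrX:93632156-93632405, minus strand) hold 1 each, and Rrm2 (chr12:24708004-24708253, plus strand), the member with the highest level, holds none. In the annotation of GRCm38 the genes lie at chr8:75109569-75128439 (Mcm5), chr1:128331590-128359664 (Mcm6), chr11:98907801-98923940 (Cdc6), chrX:93304767-93632155 (Pola1) and chr12:24708241-24714146 (Rrm2), and all 5 are protein coding. RefSeq starts can differ from this annotation. The Cdc6 stretch shown lies inside the annotated gene, and the end of the Rrm2 stretch overlaps the annotated gene.
Mcm5: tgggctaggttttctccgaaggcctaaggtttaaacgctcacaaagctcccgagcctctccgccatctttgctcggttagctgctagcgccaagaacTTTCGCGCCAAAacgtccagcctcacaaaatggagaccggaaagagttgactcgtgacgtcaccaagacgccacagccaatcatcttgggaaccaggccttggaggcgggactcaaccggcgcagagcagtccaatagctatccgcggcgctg
Mcm6: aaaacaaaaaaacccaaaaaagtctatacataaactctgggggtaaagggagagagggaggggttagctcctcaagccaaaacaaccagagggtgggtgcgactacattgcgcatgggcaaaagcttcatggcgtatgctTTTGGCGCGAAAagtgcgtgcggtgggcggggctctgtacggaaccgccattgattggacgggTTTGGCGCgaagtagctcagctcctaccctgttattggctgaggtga
Cdc6: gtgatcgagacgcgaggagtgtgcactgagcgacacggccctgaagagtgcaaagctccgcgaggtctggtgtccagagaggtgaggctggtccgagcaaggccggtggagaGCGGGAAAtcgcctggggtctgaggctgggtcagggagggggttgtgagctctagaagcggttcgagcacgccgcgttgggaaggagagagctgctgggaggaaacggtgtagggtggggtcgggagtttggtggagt
Pola1: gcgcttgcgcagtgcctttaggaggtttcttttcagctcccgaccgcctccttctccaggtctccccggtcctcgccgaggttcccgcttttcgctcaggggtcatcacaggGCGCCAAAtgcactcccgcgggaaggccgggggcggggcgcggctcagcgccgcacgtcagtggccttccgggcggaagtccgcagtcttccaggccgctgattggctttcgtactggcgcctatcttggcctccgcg
Rrm2: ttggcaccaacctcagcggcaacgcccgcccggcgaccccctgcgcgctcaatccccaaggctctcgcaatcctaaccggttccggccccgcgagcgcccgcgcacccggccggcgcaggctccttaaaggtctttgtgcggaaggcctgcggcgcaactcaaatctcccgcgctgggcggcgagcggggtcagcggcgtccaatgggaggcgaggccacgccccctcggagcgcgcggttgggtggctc

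The 20 matches in the 14 genes were centred before the start in 12 cases and after it in 8, and 5 genes held more than 1. The genes with a match were Orc1, Cdc6, Cdt1, Mcm3, Mcm5, Mcm6, Mcm7, Gins3, Pola1, Pold1, Pole2, Rfc3, Lig1 and Uhrf1. Matches were found in 1 of 22 windows of the 25 mitosis genes listed and in 11 of 33 windows of 42 further replication genes. Of these genes, 24 and 39 were tested and are used for comparison below. The word TTTGAA, the core of the cell cycle homology region of many genes of the G2 and M phases, was found in 4 of the 37 replication windows (10.8%), in 16 of the 22 mitosis windows (72.7%) and in 20.2% of all windows. The word CCAAT was found in 21 of the 37 (56.8%) and in 41.1% of all windows.

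**Figure D1:**
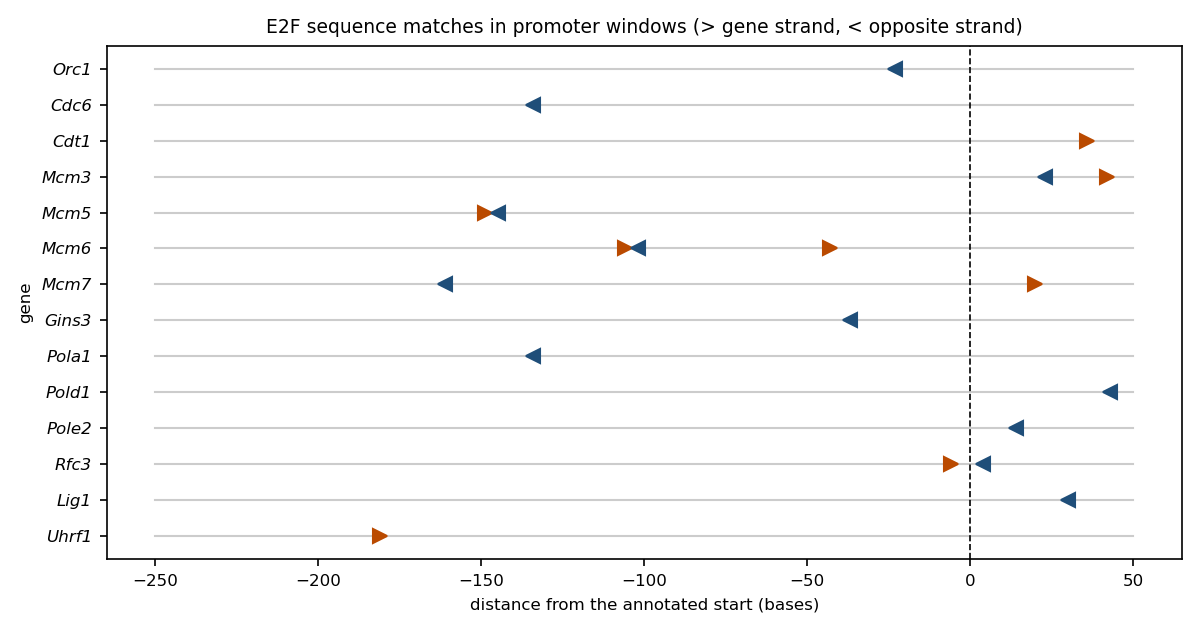
Distance in bases from the RefSeq transcription start (x axis) to the centre of each E2F match in the promoter windows of the 14 replication genes that hold one (y axis). Of the 20 matches, 12 lie before the start and 8 after it.

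Measured per length of exon, the most abundant of the 45 genes in resting CCR1/2 was Rrm2, the small subunit of ribonucleotide reductase that sets the supply of deoxynucleotides, at 242 CPM per kb, and it stood at 123 in resting CCR2. Pcna (73.0 and 50.1 CPM per kb), Mcm6 (64.1 and 43.4) and Slbp (61.4 and 43.3), the protein that binds histone mRNA stem-loops, came next. Orc1, the largest origin recognition subunit, was at the other end, at 1.32 and 0.692 CPM per kb. The summed CPM of all 45 genes ran from 4493 to 5570 in resting CCR1/2, 2859 to 3704 in resting CCR2, 4624 to 5524 in inflamed CCR1/2, 3171 to 4663 in inflamed CCR2 and 9474 to 10696 in inflamed CCR1.

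**Figure D2:**
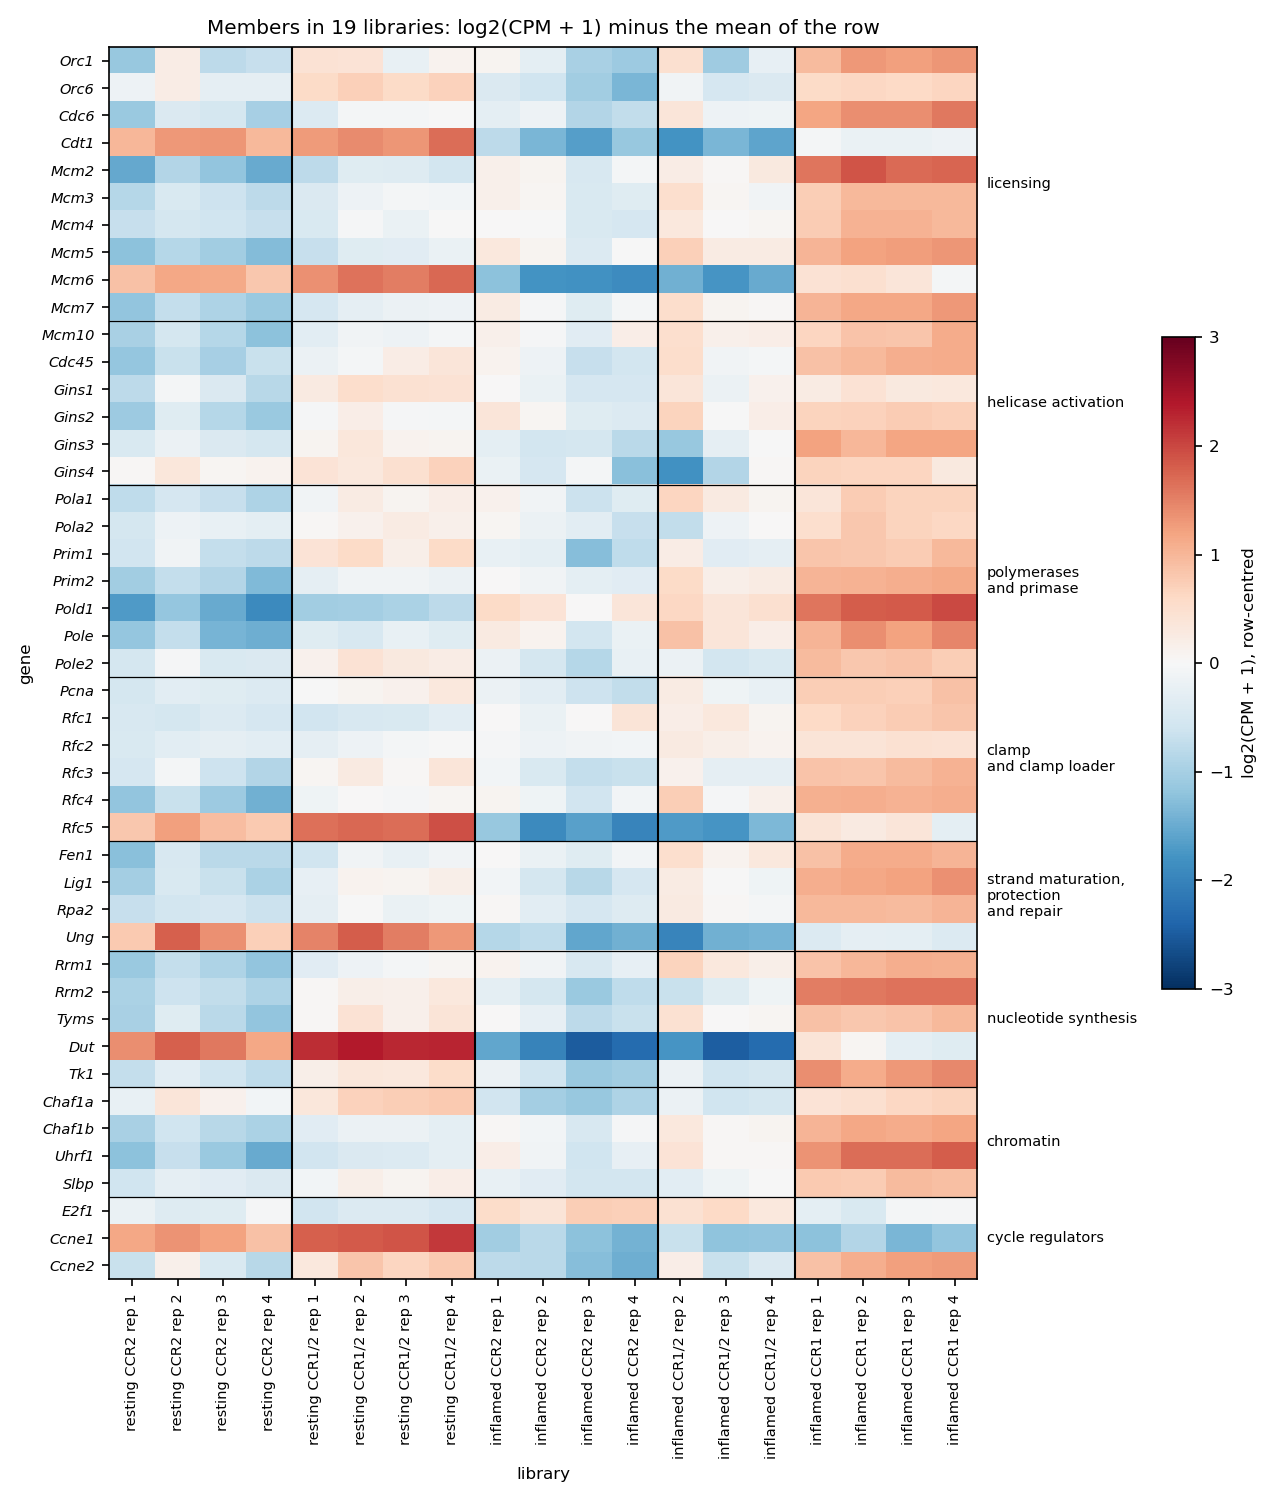
Level of each of the 45 genes (rows, grouped by role) in each of the 19 libraries (columns, grouped by population and condition), as log2(CPM + 1) after subtraction of each row's mean over the libraries. Most rows are highest in the 4 inflamed CCR1 libraries, and Dut, Mcm6, Rfc5, Cdt1, Ccne1 and Ung are highest in the 8 resting libraries.

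Within groups the libraries were not equal. Resting CCR1/2 replicate 1 was the lowest of its group for 37 of the 45 genes, resting CCR2 replicate 2 was the highest of its group for 40, inflamed CCR2 replicate 1 for 38 and inflamed CCR1/2 replicate 2 for 34. Many of the 45 genes thus moved together from library to library, and they are not independent measurements of one difference.

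The first question was how the 2 resting populations differ. Of the 45 genes, 41 were higher in resting CCR1/2 than in resting CCR2 and none was lower, where 8.44% of all genes tested were called higher and 8.44% lower. The median log2 fold change of the 45 was 0.78, against 0.03 over all genes tested. This fit treated the libraries as unpaired, although same-numbered libraries of the 2 populations deviated together (r 0.334 to 0.594). With the replicate number as a block, 43 of the 45 were called higher. Most differences were under 2-fold, and 8 genes were called with at least a 2-fold difference, where 2.34% of all genes were. For 37 of the 45 genes every resting CCR1/2 library lay above every resting CCR2 library, which was so for 8.2% of all genes. In bulk RNA, more dividing cells in a population and more of a transcript in each dividing cell cannot be told apart.

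Genes of every role were called higher. The counts were 9 of 10 for licensing, 6 of 6 for helicase activation, 7 of 7 for polymerases and primase, 5 of 6 for the clamp and its loader, 3 of 4 for strand maturation, 5 of 5 for nucleotide synthesis, 4 of 4 for chromatin and 2 of 3 for cycle regulators. The median log2 fold change by role ran from 0.62 for strand maturation to 1.03 for nucleotide synthesis.

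The nucleotide synthesis genes were the group with the highest median. Rrm2 stood at 613, 674, 660.0 and 741 CPM in the 4 resting CCR1/2 libraries and at 306, 388, 356 and 313 in the 4 resting CCR2 libraries. The lowest resting CCR1/2 library was well above the highest resting CCR2 library, and the difference was 2.08-fold (log2 fold change 1.05 ± 0.09 SE, edgeR adjusted p = 5.22e-05). Tk1, the thymidine kinase that salvages thymidine in S phase, stood at 106, 118, 117 and 139 CPM and 56.1, 75.2, 61.0 and 54.6 CPM, again without overlap (log2 fold change 1.03 ± 0.11 SE, edgeR adjusted p = 0.00011). Tyms, thymidylate synthase, was 177 ± 23.5 CPM against 83.5 ± 21.5 (log2 fold change 1.16 ± 0.16 SE, edgeR adjusted p = 0.000496). Rrm1, the large subunit of ribonucleotide reductase, and Dut, which removes dUTP so that uracil is kept out of DNA, rose by 0.93 and 0.87 on the log2 scale.

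Among the enzymes that synthesise DNA, Pola1, the catalytic subunit of the polymerase that starts each strand, had the smallest p of its role. Its libraries read 76.1, 97.3, 87.4 and 95.3 CPM in resting CCR1/2 and 47.8, 58.1, 50.6 and 42.7 CPM in resting CCR2. The groups did not overlap, and the difference was 1.88-fold (log2 fold change 0.91 ± 0.11 SE, edgeR adjusted p = 0.000199). Prim1, the small subunit of primase, rose by 1.06 and Pole, the leading strand polymerase, by 0.91 on the log2 scale. Pold1, the catalytic subunit of the lagging strand polymerase, stood at 45.9, 46.6, 48.8 and 54.7 CPM in resting CCR1/2 and at 28.5, 41.9, 32.8 and 24.5 CPM in resting CCR2 (log2 fold change 0.69 ± 0.14 SE, edgeR adjusted p = 0.00558). Its levels also were all higher in resting CCR1/2.

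The helicase genes were higher by similar amounts. Mcm5, a subunit of the helicase ring, stood at 188, 236, 239 and 265 CPM in resting CCR1/2 and at 128, 169, 148 and 123 CPM in resting CCR2 (log2 fold change 0.78 ± 0.12 SE, edgeR adjusted p = 0.000774). Cdc45, which joins the ring to form the active helicase, stood at 55.8, 60.6, 73.0 and 81.2 CPM and 27.6, 39.3, 31.0 and 38.9 CPM (log2 fold change 1.06 ± 0.13 SE, edgeR adjusted p = 0.000242). In both genes the 4 resting CCR1/2 libraries were above the 4 resting CCR2 libraries. The 6 ring subunits Mcm2 to Mcm7 had log2 fold changes between 0.54 (Mcm4) and 0.82 (Mcm2), and the 4 GINS subunits between 0.42 (Gins4) and 1.03 (Gins1).

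The clamp loader, which opens the Pcna ring and places it on DNA, was uneven. Rfc4 rose by 1.14 and Rfc5 by 0.88 on the log2 scale, while Rfc2 stood at 219.8, 238, 252 and 263 CPM against 192, 213, 219 and 214 CPM, which did not overlap but differed by 1.22-fold (log2 fold change 0.29 ± 0.07 SE, edgeR adjusted p = 0.0147). Rfc1, the large subunit, was 109 ± 8.43 CPM in resting CCR1/2 and 107 ± 3.80 CPM in resting CCR2 and was not called (log2 fold change 0.10 ± 0.07 SE, edgeR adjusted p = 0.379). Lig1, the ligase that joins Okazaki fragments, stood at 105, 133, 132 and 141 CPM and 60.5, 90.2, 78.5 and 64.0 CPM (log2 fold change 0.88 ± 0.13 SE, edgeR adjusted p = 0.000627). Slbp stood at 329, 391, 369 and 403 CPM and 229.7, 287, 277 and 259 CPM (log2 fold change 0.58 ± 0.09 SE, edgeR adjusted p = 0.000859), and neither gene overlapped between the populations.

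Of the cycle regulators, Ccne2, cyclin E2, which with Cdk2 drives entry into S phase, stood at 84.7, 123, 107 and 118 CPM in resting CCR1/2 and at 42.4, 76.0, 49.0 and 37.7 CPM in resting CCR2. It was 2.21-fold higher (log2 fold change 1.15 ± 0.20 SE, edgeR adjusted p = 0.00297), and its paralogue Ccne1 rose by 0.85 on the log2 scale. E2f1, an activating E2F factor, went the other way in level: it stood at 15.8, 17.8, 17.9 and 16.5 CPM in resting CCR1/2 and at 20.6, 18.1, 18.4 and 23.3 CPM in resting CCR2. All 4 resting CCR1/2 values were below all 4 resting CCR2 values, but the difference was small and was not called (log2 fold change -0.17 ± 0.11 SE, edgeR adjusted p = 0.351).

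The remaining genes not called were Orc1 (log2 fold change 1.01 ± 0.37 SE, edgeR adjusted p = 0.085) and Ung, the uracil-DNA glycosylase (log2 fold change 0.43 ± 0.25 SE, edgeR adjusted p = 0.282). Both passed the threshold in a fit with the replicate number as a block (edgeR adjusted p = 0.00552 for Orc1 and 0.0222 for Ung), and both without resting CCR2 replicate 2 (0.00286 and 0.0328). Conversely, Cdt1 (log2 fold change 0.36 ± 0.11 SE, edgeR adjusted p = 0.0484) and Fen1, the flap endonuclease that trims Okazaki fragments (log2 fold change 0.71 ± 0.19 SE, edgeR adjusted p = 0.0217), each lost the call when any 1 of resting CCR1/2 replicates 2 and 4 or resting CCR2 replicates 1, 3 and 4 was left out (edgeR adjusted p between 0.0558 and 0.149 for Cdt1 and between 0.0528 and 0.0644 for Fen1). Fen1 reads are also uncertain in origin: 84.2% of its exon length overlaps exons of Tmem258 and Gm10143 on the opposite strand, and the strand setting of the counting is not stated. The same holds in part for Gins2 (67.3%, Gse1) and Chaf1a (52.5%, Ubxn6).

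Genes that the list did not contain were called in the same direction. Of 39 further replication genes tested, which include Orc2, Gmnn and Dnmt1, 29 were higher and none lower (median log2 fold change 0.57), of 22 further nucleotide synthesis genes 12 were higher and none lower, and of 24 mitosis genes all 24 were higher (median 0.99). Mki67, which marks cycling cells, stood at 477 ± 26.7 CPM (SD, n = 4) in resting CCR1/2 and at 248 ± 27.9 CPM (n = 4) in resting CCR2 (log2 fold change 1.02 ± 0.09 SE, edgeR adjusted p = 5.58e-05). Of 8 inhibitors of replication or the cycle 1 was higher and 5 were lower. Among the latter, Samhd1, which breaks down deoxynucleotides, differed by -0.69 and Cdkn1a, the inhibitor p21, by -0.56 on the log2 scale (0.00206 and 0.0245, edgeR adjusted p). Of 11 E2F and pocket protein genes 5 were higher and none lower, with E2f7 at 0.98.

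Early granule genes moved with this difference. The summed CPM of the 6 early granule genes with a row was 3291 to 6793 in resting CCR1/2 and 445 to 1643 in resting CCR2, 5 of the 6 were called higher, and the resting CCR2 library with the highest sum, replicate 2, was also the one in which 40 of the 45 replication genes were highest. The monocyte markers summed to 26645 to 38263 CPM and 40041 to 45187 CPM, with 7 of 11 called lower and none at 0. Of the 6 stem and progenitor markers 3 were called higher and 1 lower, with summed CPM of 39.4 to 61.8 and 42.0 to 69.4, and of the 10 erythroid markers none was called. The mature neutrophil genes summed to 501 to 780 and 553 to 923 CPM (3 of 9 higher), and the 10 B lineage genes to 595 to 718 and 757 to 1013 CPM (1 higher, 2 lower). Erythroid sums stayed between 9.85 and 38.1 CPM in the 8 libraries. The part of such cells in the replication values was not tested.

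**Figure D3:**
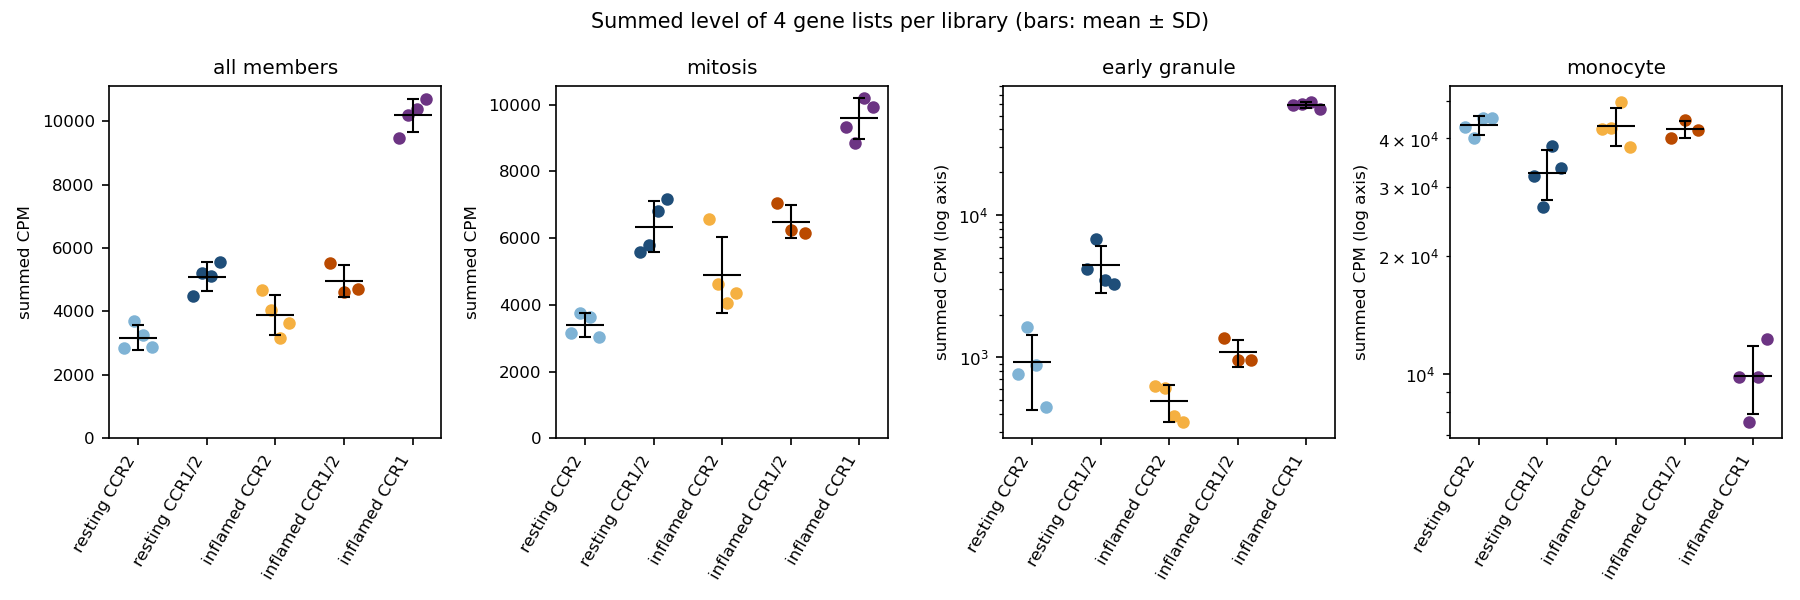
Summed CPM (y axes) of the 45 replication genes, 25 mitosis genes, 6 early granule genes and 11 monocyte genes in each of the 19 libraries by group (x axes). Points are libraries and bars are the mean ± SD. The y axes of the 2 marker lists are logarithmic. The replication sums of resting CCR1/2 (4493 to 5570) lie above those of resting CCR2 (2859 to 3704), and the inflamed CCR1 libraries lie apart in all 4 lists.

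The second question was what 7 days of cytokine infusion did in each population. In CCR2, 19 of the 45 genes were higher in inflamed than in resting cells and 10 were lower, where 21.9% of all genes were called higher and 25.9% lower. In CCR1/2, 12 were higher and 19 lower, where 20.6% and 25.4% were. With a difference of at least 2-fold, 4 were higher (background 9.37%) and 7 lower (19.2%) in CCR2, and 1 was higher (9.16%) and 10 lower (19.4%) in CCR1/2. The counts higher in CCR2 and lower in CCR1/2 stood furthest above the shares over all genes, and the other counts were closer to them or below. The median log2 fold change of the 45 was 0.18 in CCR2 and -0.12 in CCR1/2, and that of all genes tested was -0.10 and -0.25.

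Both directions occurred within most roles. In CCR2 the licensing genes gave 5 higher and 3 lower, helicase activation 3 and 1, polymerases and primase 4 and 0, the clamp and its loader 2 and 1, strand maturation 1 and 1, nucleotide synthesis 1 and 1, chromatin 2 and 1 and cycle regulators 1 and 2. In CCR1/2 the same roles gave 3 and 3, 1 and 3, 3 and 3, 1 and 2, 1 and 1, 1 and 3, 1 and 2, and 1 and 2. The 6 subunits of the helicase ring, which work in equal numbers, give the plainest case: 5 were called higher in CCR2 while Mcm6 was lower. Of the 5, Mcm4 (log2 fold change 0.33 ± 0.12 SE, edgeR adjusted p = 0.0398) lost its call without inflamed CCR2 replicate 1 or 2 (edgeR adjusted p = 0.131 and 0.111).

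Mcm6 stood at 185, 227, 223 and 175 CPM in the 4 resting CCR2 libraries and at 41.8, 28.1, 27.9 and 26.2 CPM in the 4 inflamed CCR2 libraries. In CCR1/2 it stood at 260.0, 312, 293 and 331 CPM in the 4 resting and at 36.5, 28.5 and 34.3 CPM in the 3 inflamed libraries. The inflamed levels were all far below the resting ones in both populations (log2 fold change -2.78 ± 0.16 SE, edgeR adjusted p = 1.71e-09 in CCR2; log2 fold change -3.30 ± 0.12 SE, edgeR adjusted p = 4.24e-09 in CCR1/2). Mcm5, its partner in the ring, went the other way: its inflamed libraries read 381, 323, 228 and 302 CPM in CCR2 and 502, 362 and 359 CPM in CCR1/2, all above the resting values given earlier (log2 fold change 1.05 ± 0.15 SE, edgeR adjusted p = 3.31e-05; log2 fold change 0.68 ± 0.13 SE, edgeR adjusted p = 0.000984). Mcm2 likewise went from 53.7, 85.6, 68.9 and 54.4 CPM to 176, 165, 113 and 151 CPM in CCR2 (log2 fold change 1.13 ± 0.17 SE, edgeR adjusted p = 4.71e-05), and from 110.0 ± 14.2 (n = 4) to 179 ± 16.9 CPM (n = 3) in CCR1/2 (log2 fold change 0.57 ± 0.12 SE, edgeR adjusted p = 0.00203).

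The polymerase genes held the clearest rise. Pold1 went from 28.5, 41.9, 32.8 and 24.5 CPM in resting CCR2 to 142, 127, 96.3 and 123 CPM in inflamed CCR2, which was 3.62-fold (log2 fold change 1.86 ± 0.17 SE, edgeR adjusted p = 2.62e-07). In CCR1/2 its inflamed libraries read 147, 122 and 133 CPM, 2.50-fold above the resting ones (log2 fold change 1.32 ± 0.09 SE, edgeR adjusted p = 4.3e-07). In neither population did inflamed and resting libraries overlap. Pole also rose in both (1.08 and 0.78 on the log2 scale), as did Prim2 (0.74 and 0.38), while Pole2, Prim1 and Pola2 were called lower in CCR1/2 (-0.83, -0.69 and -0.54). Their values in CCR2 were -0.14, -0.14 and -0.04, which were not called, and Pola2 lost its call in CCR1/2 without resting CCR1/2 replicate 2 (-0.49, edgeR adjusted p = 0.0638). Prim2 lost its call in CCR1/2 without inflamed CCR1/2 replicate 2 (0.25, edgeR adjusted p = 0.0704).

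Dut had the lowest inflamed levels relative to rest. It stood at 46.6, 62.3, 53.3 and 39.9 CPM in resting CCR2 and at 5.14, 3.53, 2.23 and 2.67 CPM in inflamed CCR2, and at 83.3, 94.0, 86.6 and 87.4 CPM in resting CCR1/2 and 4.36, 2.30 and 2.68 CPM in inflamed CCR1/2. The difference was 15.7-fold in CCR2 (log2 fold change -3.97 ± 0.23 SE, edgeR adjusted p = 2.31e-09) and 31.0-fold in CCR1/2 (log2 fold change -4.95 ± 0.20 SE, edgeR adjusted p = 7.35e-09), with no overlap in either. Rfc5, a small subunit of the clamp loader, fell from 126, 132, 128 and 155 CPM to 11.5, 10.8 and 15.0 CPM in CCR1/2 (log2 fold change -3.56 ± 0.15 SE, edgeR adjusted p = 7.58e-09), and from 77.5 ± 11.9 to 12.2 ± 3.76 CPM (n = 4 each) in CCR2 (log2 fold change -2.75 ± 0.19 SE, edgeR adjusted p = 1.65e-08). Ccne1, cyclin E1, fell from 30.2, 34.6, 31.0 and 24.4 CPM to 5.80, 6.93, 4.89 and 4.22 CPM in CCR2 (log2 fold change -2.54 ± 0.17 SE, edgeR adjusted p = 1.31e-08) and had a log2 fold change of -3.25 in CCR1/2. Its paralogue Ccne2 was lower by much less: its inflamed libraries read 38.8, 38.7, 27.5 and 23.9 CPM in CCR2 and 77.9, 42.4 and 50.4 CPM in CCR1/2 (log2 fold change -0.75 ± 0.21 SE, edgeR adjusted p = 0.00933; log2 fold change -1.06 ± 0.20 SE, edgeR adjusted p = 0.00177), and without resting CCR2 replicate 2 the CCR2 difference was not called (-0.42, edgeR adjusted p = 0.0671).

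Dut, Mcm6, Rfc5, Cdt1, Ccne1 and Ung formed a set apart in size. In each population they were the 6 genes below a log2 fold change of -2.5, a limit chosen after the values were seen, and the next lowest of the 45 was at -1.12 in CCR2 and -1.32 in CCR1/2. The log2 fold changes in CCR2 and CCR1/2 were -2.58 and -3.36 for Cdt1, which recruits the helicase ring to origins, and -3.25 and -4.81 for Ung, whose inflamed CCR1/2 and inflamed CCR2 libraries all read under 2 CPM. Of the other 39 genes, 19 were higher and 4 lower in CCR2 (median 0.33), and 12 were higher and 13 lower in CCR1/2 (median 0.11). Such large losses were found across the genome: of 7583 genes above 10 CPM in resting CCR2, 563 (7.42%) were below the same limit, beside 5 of the 42 replication genes at that level (11.9%), and in CCR1/2 they were 572 of 7506 (7.62%) and 6 of 44 (13.6%).

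Genes that most cells use at a high level were among those with large losses. Rpl13, a ribosomal protein gene, had log2 fold changes of -3.47 in CCR2 and -4.10 in CCR1/2, and Rps2, another, of -2.78 and -3.23. Both genes were chosen after their values were seen. The genes that fell had a higher GC content at the 5′ end: the median over the first 300 bases of the longest coding transcript was 68.7% for the 555 fallen genes of CCR2 with a transcript and 60.3% for the 6831 others, and 68.0% and 60.3% in CCR1/2. For the replication genes the medians were 67.3% and 59.3% in CCR2, and 66.8% and 59.0% in CCR1/2. Among the fallen replication genes the values were 59.3% (Mcm6), 63.0% (Rfc5), 66.3% (Ung), 67.3% (Cdt1), 69.3% (Dut) and 70.7% (Ccne1). E2f1, which rose, was at 78.7%. Over the genes above 10 CPM with a transcript, the Spearman correlation of this GC content with the log2 fold change was -0.345 in CCR2 and -0.351 in CCR1/2. The part of GC content in these losses was not tested.

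E2f1 was called higher in both populations. It stood at 35.9, 31.7, 40.5 and 40.1 CPM in inflamed CCR2 and at 33.2, 36.6 and 30.2 CPM in inflamed CCR1/2, all above the resting values given earlier (log2 fold change 0.81 ± 0.13 SE, edgeR adjusted p = 0.000103 in CCR2; log2 fold change 0.84 ± 0.12 SE, edgeR adjusted p = 0.000139 in CCR1/2). Rfc1 was also higher in both, at 172, 185 and 158 CPM in inflamed CCR1/2 against 99.5, 106, 109 and 119.8 CPM at rest (log2 fold change 0.53 ± 0.09 SE, edgeR adjusted p = 0.000444), and at 156 ± 27.3 CPM against 107 ± 3.80 CPM in CCR2 (n = 4 each; log2 fold change 0.48 ± 0.13 SE, edgeR adjusted p = 0.00517). The genes called in neither population were Orc1, Cdc6, Rfc2, Rpa2, Tyms, Pcna (-0.11 and -0.28) and Lig1 (0.22 and -0.12). Single libraries decided some of these: Tyms was called higher in CCR2 without resting CCR2 replicate 2 (0.61, edgeR adjusted p = 0.0125). Without inflamed CCR1/2 replicate 2, Tyms (-0.36, edgeR adjusted p = 0.0428), Pcna (-0.43, 0.00321) and Orc1 (-1.19, 0.0342) were called lower in CCR1/2. With all 19 libraries in one fit, Tyms, Rfc2 and Rpa2 were called higher in CCR2 and Rfc2 in CCR1/2.

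Rrm2 and Tk1, which had differed most clearly at rest, were called lower in inflamed CCR1/2 and were not called in CCR2, a difference between the populations that did not pass its own test (the interaction below). Inflamed CCR1/2 libraries held 371, 461 and 548 CPM of Rrm2, below all 4 resting ones (log2 fold change -0.67 ± 0.13 SE, edgeR adjusted p = 0.00118), and inflamed CCR2 libraries held 486, 415, 276 and 348 CPM, which overlapped the resting range (log2 fold change 0.09 ± 0.15 SE, edgeR adjusted p = 0.672). Tk1 was 82.8, 61.5 and 64.4 CPM in inflamed CCR1/2 (log2 fold change -0.92 ± 0.12 SE, edgeR adjusted p = 5.9e-05) and 82.1, 61.4, 43.0 and 45.2 CPM in inflamed CCR2 (log2 fold change -0.17 ± 0.18 SE, edgeR adjusted p = 0.473). Slbp, at 279, 320.1 and 345 CPM, was called lower in inflamed CCR1/2 (log2 fold change -0.37 ± 0.11 SE, edgeR adjusted p = 0.0131), and the call was lost without resting CCR1/2 replicate 2 (-0.30, edgeR adjusted p = 0.0759) and also with DESeq2 (-0.29, adjusted p = 0.0568), with its size factors in edgeR (adjusted p = 0.0644) and with all 19 libraries in one fit (0.0736). Chaf1a, the large subunit of the chromatin assembly factor, was lower in both (-1.12 and -1.28), while Uhrf1, which brings the maintenance methyltransferase to new DNA, was higher in both (0.88 and 0.47).

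The count of CCR1/2 genes called depended on single libraries, since 7 were higher without inflamed CCR1/2 replicate 2 and 9 without resting CCR1/2 replicate 1, and 13 were lower without resting CCR1/2 replicate 2. Gins4 and Gins3 were uneven within the group: the 3 inflamed CCR1/2 libraries read 11.6, 22.9 and 44.0 CPM of Gins4 and 12.5, 23.5 and 28.7 CPM of Gins3, with replicate 2 the lowest in both.

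Of the 39 further replication genes 13 were higher and 14 lower in CCR2, and 9 and 18 in CCR1/2. Of the 24 mitosis genes 14 were higher and 1 lower in CCR2, and 6 and 5 in CCR1/2. Of the 11 E2F and pocket protein genes 1 was higher and 9 lower in each population. Mki67 was 372 ± 85.2 CPM (n = 4) in inflamed CCR2 and 467 ± 97.2 CPM (n = 3) in inflamed CCR1/2, with log2 fold changes against rest of 0.51 ± 0.15 (edgeR adjusted p = 0.011) and -0.16 ± 0.12 (0.299). The early granule genes summed to 351 to 629 CPM in inflamed CCR2 and 955 to 1367 CPM in inflamed CCR1/2, and 2 of the 6 in CCR2 and 5 of the 6 in CCR1/2 were called lower than at rest. Other markers moved too: in CCR2 and CCR1/2, 5 and 4 of the 6 stem and progenitor genes and 7 and 4 of the 10 erythroid genes were lower, and 6 and 5 of the 9 mature neutrophil genes were higher. In CCR2, 1 stem and progenitor gene was higher and 1 mature neutrophil gene lower. Stem and progenitor sums were 3.93 to 7.14 CPM, erythroid sums 1.02 to 2.74 CPM and mature neutrophil sums 1259 to 2451 CPM in these 7 inflamed libraries. Of the 11 monocyte genes 3 were higher and 4 lower in CCR2, and 4 and 4 in CCR1/2. The part of such cells in the replication values was not tested here either.

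**Figure D4:**
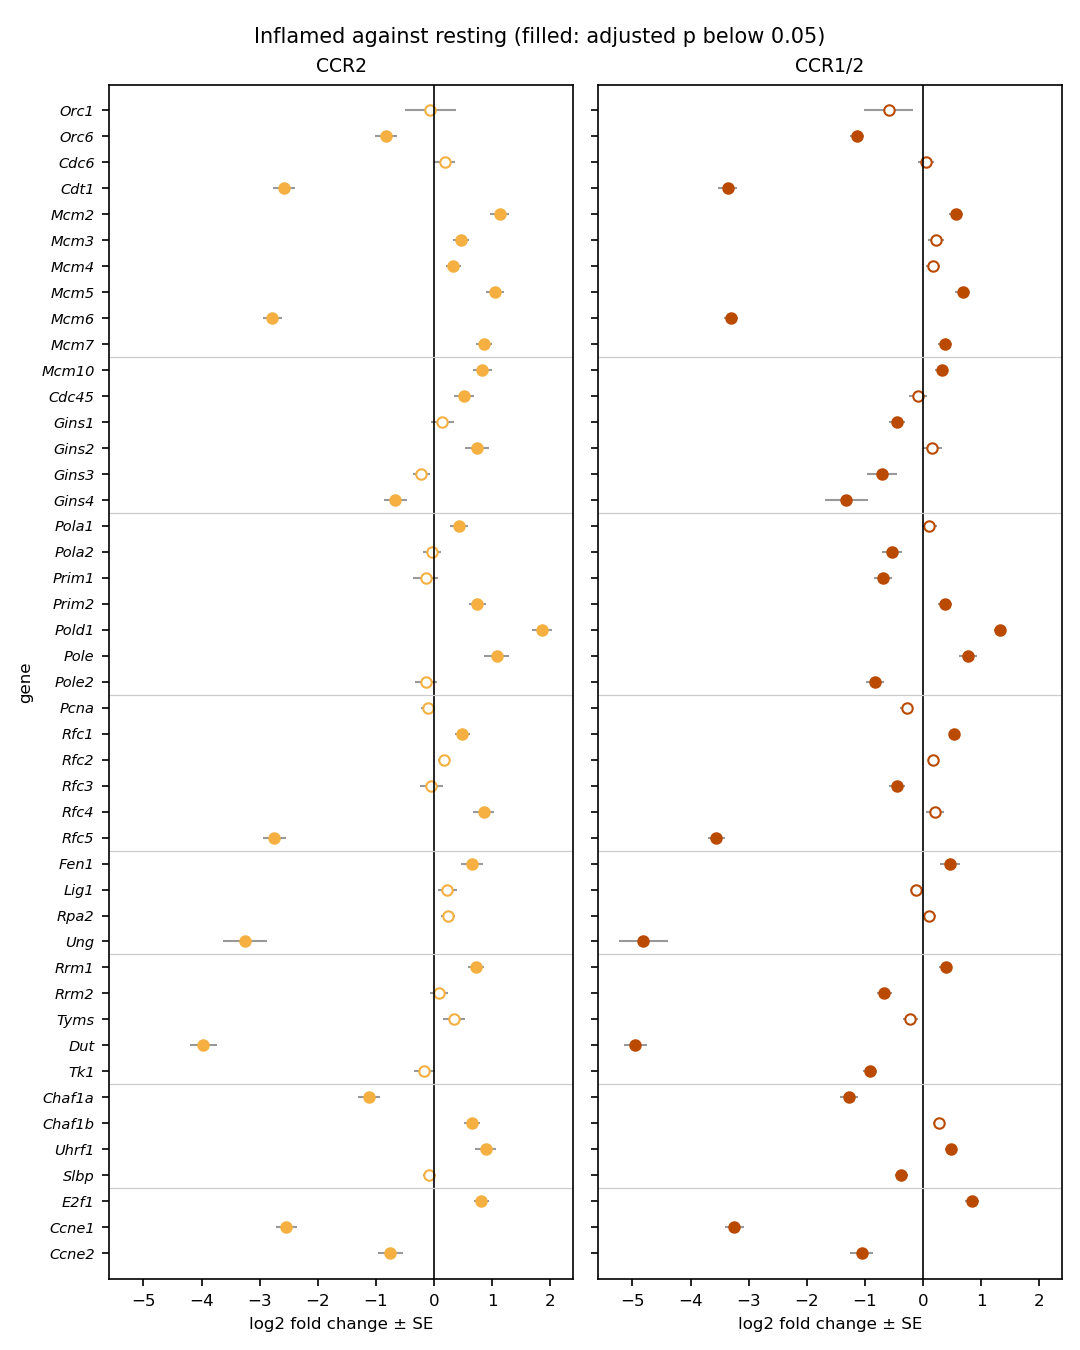
Log2 fold change ± SE of inflamed against resting cells (x axes) for each of the 45 genes (y axis, grouped by role) in CCR2 (left) and CCR1/2 (right), with filled points for genes called at adjusted p below 0.05. Dut, Mcm6, Rfc5, Cdt1, Ccne1 and Ung lie below -2.5 in both panels, and Pold1 is the highest in both.

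The third question was whether the resting difference between CCR1/2 and CCR2 was present in inflamed cells. No gene of the 45 was called between inflamed CCR1/2 and inflamed CCR2 by edgeR, where 0.123% of all genes were called higher and 0.0643% lower, and none by DESeq2. A fit with the replicate number as a block called 6 higher. At an unadjusted edgeR p below 0.05 in the main fit there were 18 of the 45, and 1675 of all 18652 genes tested. The point estimates were positive for 39 of the 45 and for 44.955% of all genes tested, with a median log2 fold change of 0.31 against -0.03 over all genes. For 6 genes the 3 inflamed CCR1/2 libraries lay above the 4 inflamed CCR2 libraries, which was so for 5.51% of all genes.

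The values show how wide the inflamed groups were. Rrm1 stood at 676, 532 and 485 CPM in inflamed CCR1/2 and at 457, 394, 305 and 359 CPM in inflamed CCR2, without overlap (log2 fold change 0.55 ± 0.14 SE, edgeR adjusted p = 0.19). Ccne2, whose values were given above, did not overlap either (log2 fold change 0.80 ± 0.22 SE, edgeR adjusted p = 0.278), nor did Cdc6, Prim2, Rfc2 and Fen1. Rrm2 and Mcm5 overlapped (0.26 ± 0.19 and 0.38 ± 0.17), with inflamed CCR2 replicate 1 inside the inflamed CCR1/2 range for both. Replicate 2 of inflamed CCR2 was also inside it for Rrm2. Of the 24 mitosis genes and the 39 further replication genes none was called. Granule markers differed alongside: the 6 early granule genes were all positive (median 1.65, 1 called higher) and the 9 mature neutrophil genes were all positive (median 0.84, 2 called higher), with sums of 955 to 1367 against 351 to 629 CPM and 2125 to 2451 against 1259 to 1484 CPM. None of the 11 monocyte genes was called. Their part in the replication values was not tested.

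Whether inflammation changed the 2 populations by different amounts was tested as an interaction over the 15 CCR1/2 and CCR2 libraries. No gene of the 45 was called in either direction by edgeR, where 0.241% of all genes were called higher and 0.155% lower. At an unadjusted edgeR p below 0.05 there were 21 of the 45, and 2419 of all 18652 genes tested. DESeq2 called 2 lower, Rfc5 (adjusted p = 0.0493) and Rrm2 (0.0353). The change in CCR1/2 was below that in CCR2 for 44 of the 45 point estimates, and for 10680 of all 18652 genes tested. The median was -0.53 on the log2 scale, against -0.10 over all genes tested. Rrm2 had an interaction of -0.80 ± 0.22 (edgeR adjusted p = 0.111) and Rfc1 the only positive one, 0.01 ± 0.17. Over all genes tested the split of calls moved with the scaling, from 45 higher and 29 lower to 85 and 28 with the size factors of DESeq2.

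The last comparison concerns the inflamed CCR1 libraries, whose markers were given above. Of the 45 genes, 43 were higher in inflamed CCR1 than in inflamed CCR2 and 1 was lower, where 22.7% of all genes were called higher and 25.4% lower. The difference was at least 2-fold for 36, where 14.4% of all genes were, and the median log2 fold change was 1.27, against -0.01 over all genes. Every inflamed CCR1 library lay above every inflamed CCR2 library for 43 genes, as it did for 21.2% of all genes. Against inflamed CCR1/2, 40 were higher and 1 lower, where 20.2% and 23% of all genes were; 18 were higher by at least 2-fold, where 13.2% were, and the median was 0.97. These counts rest on the 4 libraries that went against their label, and no value without them can be given.

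Rrm2 was the gene with the smallest p in both. The 4 inflamed CCR1 libraries read 1727, 1779, 1837 and 1851 CPM, above every library of the other groups (log2 fold change 2.25 ± 0.14 SE, edgeR adjusted p = 6.31e-10 against inflamed CCR2; log2 fold change 1.96 ± 0.13 SE, edgeR adjusted p = 2.87e-08 against inflamed CCR1/2). Mcm2 stood at 477, 587, 516 and 529 CPM, also above all other libraries (log2 fold change 1.81 ± 0.13 SE, edgeR adjusted p = 3.36e-09; log2 fold change 1.56 ± 0.11 SE, edgeR adjusted p = 4.16e-08). Ccne2 stood at 126, 145, 160.0 and 168 CPM (log2 fold change 2.22 ± 0.15 SE, edgeR adjusted p = 2.26e-09), and Tk1 at 246, 203, 232 and 254 CPM (log2 fold change 1.75 ± 0.12 SE, edgeR adjusted p = 5.61e-08 against inflamed CCR1/2). For Rrm2, Mcm2 and Tk1 the spread within inflamed CCR1 was narrow beside the gap to the other inflamed groups. For Ccne2 the spread was close to the gap in size, since 1 inflamed CCR1/2 library read 77.9 CPM.

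Mcm5, Cdc45, Pold1, Lig1, Slbp and Rfc2 were all higher than in inflamed CCR2, by differing amounts. Mcm5 stood at 622, 708, 727 and 767 CPM, Cdc45 at 117, 123, 134 and 137 CPM and Pold1 at 293, 340.0, 341 and 376 CPM in inflamed CCR1, with log2 fold changes against inflamed CCR2 of 1.20, 1.32 and 1.47. Lig1 stood at 266, 278, 287 and 323 CPM and Slbp at 601, 595, 671 and 648 CPM (1.69 and 1.27). Rfc2, at 347, 345, 364 and 359 CPM, had the smallest called rise (log2 fold change 0.53 ± 0.09 SE, edgeR adjusted p = 0.000118), and its call against inflamed CCR1/2 (log2 fold change 0.24 ± 0.08 SE, edgeR adjusted p = 0.0371) was lost without inflamed CCR1/2 replicate 3 or 4 or without inflamed CCR1 replicate 2, 3 or 4. Against inflamed CCR1/2, Gins1, Gins4, Pola1 and Ccne1 were not called (0.21, 1.29, 0.28 and -0.18). Gins4 was called without inflamed CCR1/2 replicate 2 (0.93, edgeR adjusted p = 0.0125) or replicate 4 (1.90, 0.000352), and also with DESeq2 (adjusted p = 0.00055), another filter (0.0175) and all 19 libraries in one fit (0.00235). Pola1 was called without inflamed CCR1/2 replicate 2 (0.43, edgeR adjusted p = 0.0111) or inflamed CCR1 replicate 1 (0.40, 0.0314), with a replicate block (0.0409) and with no filter on low counts (0.0422).

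The 6 genes that were low in inflamed CCR1/2 and CCR2 were also below their resting level in inflamed CCR1. Dut stood at 22.9, 17.9, 14.0 and 13.1 CPM and Mcm6 at 136, 141, 129.8 and 96.2 CPM, above the other inflamed groups (2.33 and 2.03 against inflamed CCR2) but under every resting library. No test against resting cells was made for inflamed CCR1, since no resting CCR1 libraries were among those used here. Ccne1 stood at 4.91, 6.56, 4.34 and 5.09 CPM and did not differ detectably from inflamed CCR2 (log2 fold change -0.05 ± 0.22 SE, edgeR adjusted p = 0.878). E2f1 was the exception in direction: it stood at 19.6, 17.1, 23.2 and 23.3 CPM in inflamed CCR1, below all inflamed CCR2 and inflamed CCR1/2 libraries (log2 fold change -0.83 ± 0.14 SE, edgeR adjusted p = 9.94e-05; log2 fold change -0.68 ± 0.14 SE, edgeR adjusted p = 0.00141).

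Of the 39 further replication genes 31 were higher and 3 lower than in inflamed CCR2, of the 24 mitosis genes 22 were higher and none lower (median 0.97), and of the 8 inhibitors none was higher and 5 were lower. Cdkn1a was 2.98 ± 0.539 CPM in inflamed CCR1 and 87.8 ± 14.2 CPM in inflamed CCR2 (n = 4 each; log2 fold change -4.87 ± 0.17 SE, edgeR adjusted p = 4.29e-13), and Samhd1 was 76.7 ± 6.87 and 1537 ± 405 CPM (log2 fold change -4.32 ± 0.18 SE, edgeR adjusted p = 2.2e-11). Among 11 E2F and pocket protein genes 6 were higher, with Tfdp1, the partner of the E2F factors, at 2.29 and E2f3 at 2.19, and 2 were lower, E2f2 (-0.41) and E2f5 (-1.87). The early granule genes (6 of 6 higher, summed CPM 55137 to 61874 against 351 to 629) moved with this difference. So did the mature neutrophil genes (8 of 9 higher), except Mmp8, which was lower. Of the 6 stem and progenitor genes 2 were higher and 1 lower, with summed CPM of 233 to 273 against 4.21 to 7.14. Kit had 2893 to 3929 reads against 0 to 10, and Myb 1907 to 2178 against 26 to 47. Flt3 had 1 to 10 reads against 36 to 89. The part of these 3 lists in the difference was not tested.

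**Figure D5:**
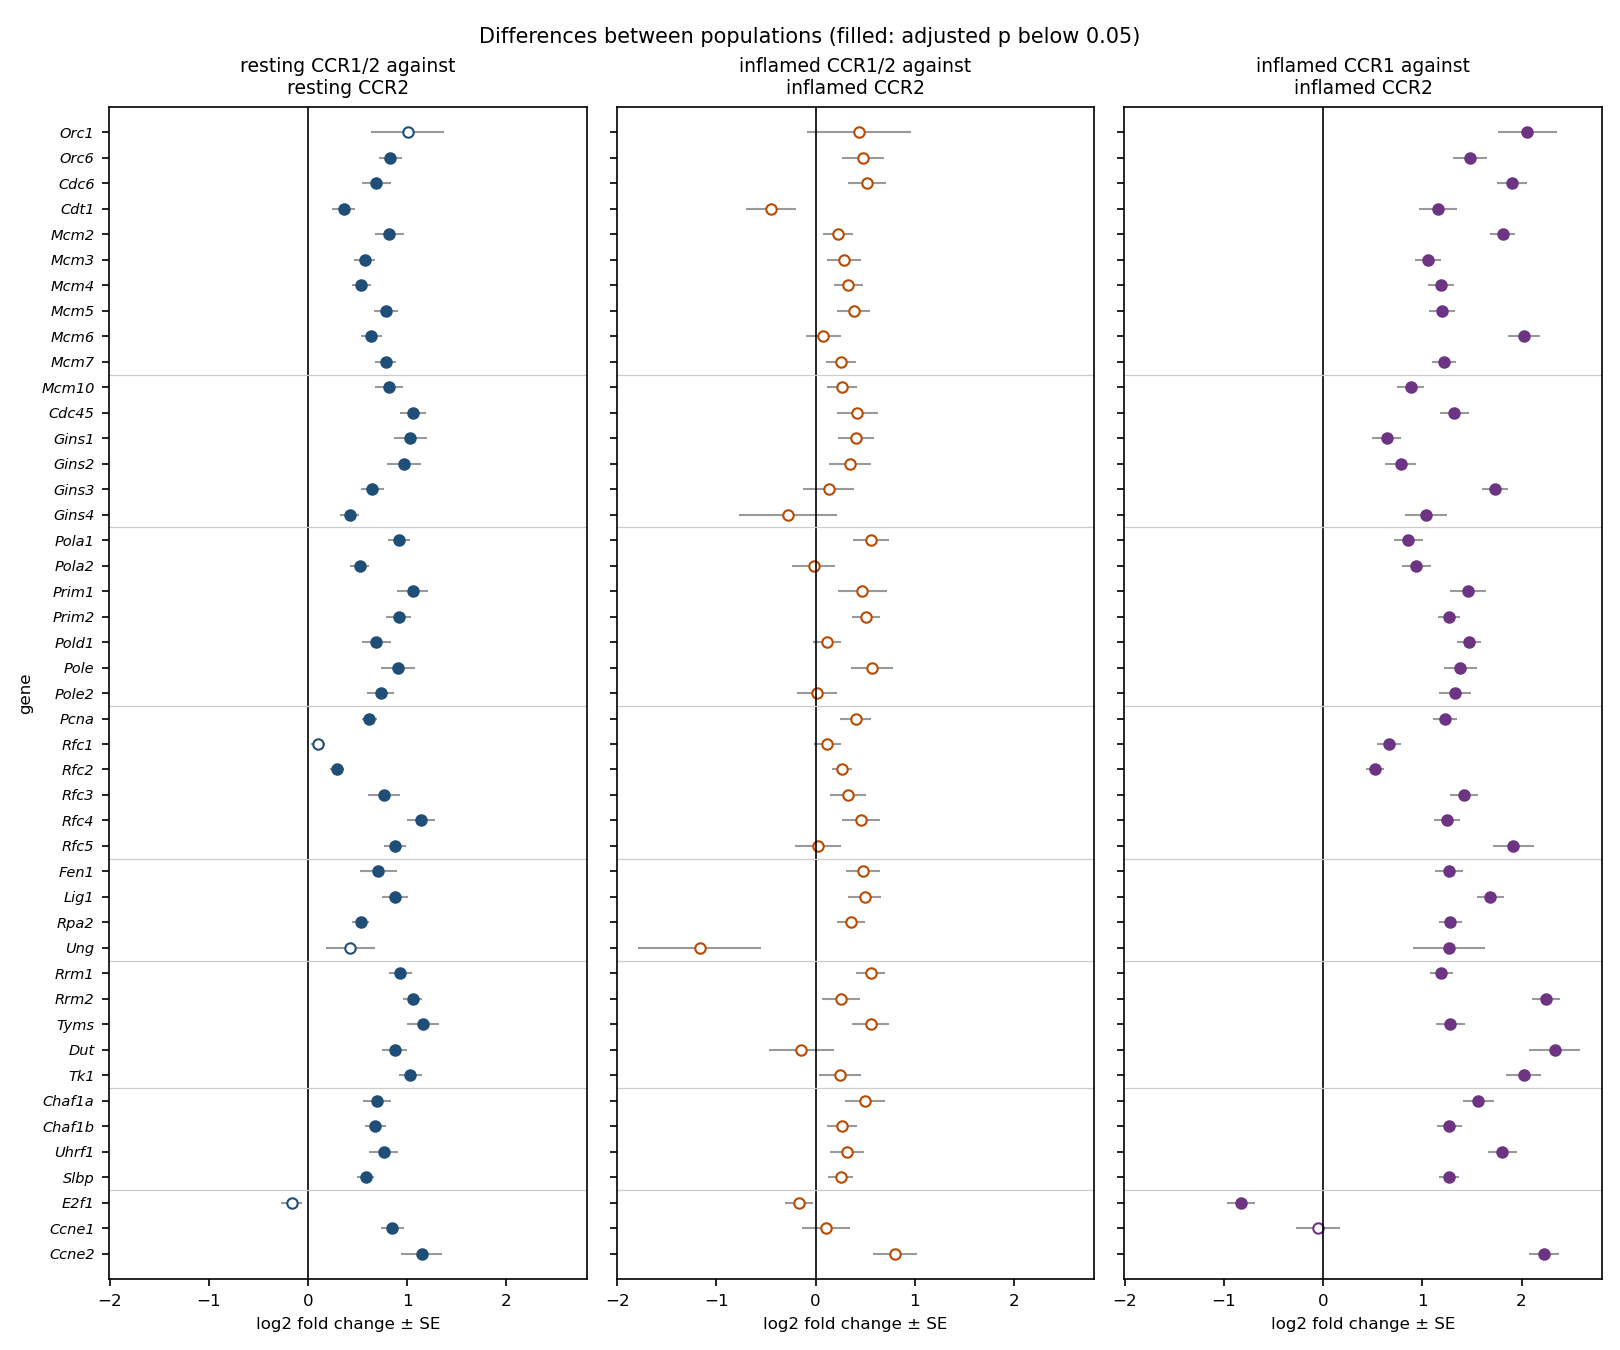
Log2 fold change ± SE (x axes) of each of the 45 genes (y axis, grouped by role) between resting CCR1/2 and resting CCR2 (left), inflamed CCR1/2 and inflamed CCR2 (middle) and inflamed CCR1 and inflamed CCR2 (right), with filled points for genes called at adjusted p below 0.05. The left panel holds 41 filled points, the middle none and the right 44, of which E2f1 alone is below 0.

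The 14 genes with an E2F match in the window had a lower median log2 fold change than the 23 without one between the resting populations (0.75 and 0.82) and a higher one in the other comparisons. The medians with and without a match were 0.20 and 0.09 for inflamed against resting CCR2, -0.03 and -0.28 for inflamed against resting CCR1/2, 0.30 and 0.27 between inflamed CCR1/2 and inflamed CCR2, 1.44 and 1.27 between inflamed CCR1 and inflamed CCR2, 1.31 and 0.93 between inflamed CCR1 and inflamed CCR1/2, and -0.49 and -0.55 for the interaction. These are descriptions without a test, and the ranges of the 2 sets overlapped in each. Rrm2, whose 250 bases shown above hold no match, had larger differences between the resting populations and between inflamed CCR1 and inflamed CCR2 than Mcm5 or Mcm6, which hold 2 and 3.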

How the data were processed

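Bulk RNA-seq libraries (low-input kit, paired ends) were made from monocytes sorted from bone marrow. The authors trimmed the reads with fastp, aligned them to GRCm38 with STAR 2.7.10a (version and build from the submitters' processing notes), and deposited raw counts of uniquely aligned reads per Ensembl gene in 1 table. The strand column that was counted is not given in the sources used here, so reads of genes that overlap on opposite strands cannot be separated. The table had 20 columns, of which 19 matched a sample; 1 column, named as an inflamed CCR1/2 replicate, matched none and was not used. Of 50854 genes 23256 had no read.

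The counts were tested with edgeR 4.0.16 (quasi-likelihood F test, robust dispersions, TMM scaling, R 4.3.3) on the libraries of the groups compared, over the 18652 genes that averaged 1 read or more per library, with Benjamini-Hochberg adjustment at 0.05. The interaction was fitted over the CCR1/2 and CCR2 libraries. Symbols came from the GENCODE annotation and promoters from RefSeq. Depth ranged from 22268658 to 30502009 reads on genes. The fitting code was tested on simulated data.

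The members, gene lists and rules were chosen with earlier results of these data known. Values in every library are given for the gene of each role with the highest mean count and for the 3 genes with the smallest p in each direction of a comparison; Rrm1, Gins3 and Gins4, outside this rule, were shown after their values were seen. Same-numbered libraries deviated together between the resting groups (r 0.334 to 0.594 over 4 pairs and 7685 genes) and between inflamed CCR1 and inflamed CCR2 (r 0.161 to 0.287). Their numbers thus appear to pair them. In the other comparisons not every same-numbered pair lay above the remaining pairs, which does not settle whether the numbers pair those libraries. The main fits treated all libraries as unpaired, and the replicate block was fitted as an alternative. Alternatives were DESeq2 1.42.0, its size factors, other filters, 1 fit of all libraries, a replicate block, a 2-fold limit, and leaving out each library. Genes listed without a row, Wdhd1, Rnaseh2b, Esco2, Rb1 and Ctsg, were not analysed here.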

Additional observations from a re-analysis of the deposited data

Results flagged for a closer look

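In 72 groups of 4 libraries (the 17 genes given by library and the sum of the 45), 1 value stood apart from the other 3 by more than Dixon's limit: Mcm6 in inflamed CCR2 replicate 1, at 41.8 CPM, beside 28.1, 27.9 and 26.2 CPM in replicates 2 to 4. Chance alone marks about 1 in 20 such groups. The same library was the highest of its group for 38 of the 45 genes.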

How the results depend on the processing

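No result reversed. Between the resting populations the number of the 45 genes called higher was 39 to 43 when 1 library was left out, 42 with DESeq2, 43 with a replicate block and 37 with all 19 libraries in one fit, where Cdt1, Gins4, Rfc2 and Pola2 lost their calls; with the 2-fold limit it was 8. In CCR2, inflamed against resting, the counts were 16 to 20 higher and 8 to 10 lower without 1 library, and 4 higher with the 2-fold limit. In CCR1/2 they were 7 to 13 higher and 13 to 22 lower without 1 library, 13 and 16 with DESeq2, and 1 and 10 with the 2-fold limit; the cause was not tested. Between inflamed CCR1/2 and inflamed CCR2, 1 gene (Rrm1) was called higher with no filter on low counts, and no call was made without 1 library. With a replicate block 6 were called higher (Pola1, Pcna, Lig1, Rrm1, Tyms and Ccne2). Same-numbered libraries of these groups had r of 0.369, 0.527 and -0.32. These 3 pairs are too few and too mixed to settle whether the numbers pair the libraries. Inflamed CCR1 gave 43 genes higher than inflamed CCR2 and 38 to 42 higher than inflamed CCR1/2 without 1 library; with the 2-fold limit the latter was 18, and none was lower (0 in both). The interaction gave 2 genes lower with DESeq2 and none without 1 library. The replicate block changed no call of the 45 between inflamed CCR1 and inflamed CCR2. Over all genes tested, DESeq2 called 138 higher and 120 lower between inflamed CCR1/2 and inflamed CCR2, where edgeR called 23 and 12, and 379 and 166 in the interaction, where edgeR called 45 and 29. The low levels of Ung and Orc1 limit the precision of their values.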
